A study of Mus musculus with 6 samples.

Results

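Enzymes that write and remove methyl and acetyl groups on histones and DNA were followed across macrophages given 2 kinds of extracellular vesicle. The set held 62 protein-coding genes of the 57010 genes in the count table, taken by symbol: lysine demethylases (Kdm), the methylcytosine oxygenases Tet1 to Tet3, lysine methyltransferases named Kmt, Ezh1 and Ezh2, the DNA methyltransferases of the Dnmt1 and Dnmt3 groups, lysine acetyltransferases named Kat, histone deacetylases (Hdac) and the sirtuins Sirt1 to Sirt7. Of these, 21 were Kdm or Tet genes, the class named for its need of oxygen, and 41 were others. The cells were RAW 264.7, a mouse macrophage line. All samples got lipopolysaccharide, which macrophages sense through Tlr4, and then vesicles shed by tendon stem cells. In 3 samples the tendon stem cells had been kept in normoxia (normoxic-EV) and in 3 they had been preconditioned in hypoxia (hypoxic-EV). Oxygen was therefore varied for the cells that shed the vesicles. The labels do not say that the macrophages were kept in hypoxia, nor give the vesicle dose, the treatment time or the species of the tendon stem cells. Cells without vesicles were not analysed here. Whether the 3 samples of a group were grown apart is not in the labels, and p-values therefore rest on a spread that may be technical.

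Histone tails carry methyl and acetyl groups that mark active and silent chromatin, and DNA carries methyl groups on cytosine. Kdm enzymes with a Jumonji domain and the Tet enzymes oxidise methyl groups in a reaction that consumes molecular oxygen and 2-oxoglutarate and needs iron. Kdm1a and Kdm1b differ in their cofactor, being amine oxidases that depend on a flavin in place of iron and 2-oxoglutarate. Methyltransferases draw on S-adenosylmethionine, acetyltransferases on acetyl-CoA and sirtuins on NAD. In macrophages, Kdm6b is known as a lipopolysaccharide-induced H3K27 demethylase, Tet2 and Hdac2 are known to restrain Il6 transcription, and Kdm3a, Kdm4b and Kdm4c are known targets of the hypoxia-inducible factors.

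Library totals ran from 16751665 to 23422328 counts. The macrophage markers fixed for a check of the labels were detected in 10 of 10 cases, 9 of them past the filter on low counts, at a summed level of 9900 to 10400 CPM in normoxic-EV and 8050 to 8390 CPM in hypoxic-EV. Of 14 tendon and stromal cell markers none passed the filter, their summed level was 1.08 to 2.39 CPM, and Tnmd, Col1a2, Col3a1, Thy1, Fmod and Bgn were at 0 in all 6 libraries. Lymphocyte markers summed to 0.419 to 0.99 CPM and endothelial and epithelial markers to 2.71 to 4.49 CPM. The 9 markers of neutrophils and dendritic cells summed to 239 to 273 CPM in normoxic-EV and 99.2 to 122 CPM in hypoxic-EV, nearly all of it S100a8 (mean 249 and 110 CPM), while S100a9 had 40 counts over all libraries and Elane was at 0. The part of these markers in the results was not tested.

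The modifying enzymes shifted by small amounts in both directions. Of the 62 genes, 59 passed the filter on low counts, and Kdm4d, Tet1 and Dnmt3c did not, with 44, 18 and 4 counts over the 6 libraries. At an adjusted p under 0.05 in edgeR's quasi-likelihood test over all genes, 12 of the 59 rose, 14 fell and 33 were not called, so 44.1% were called. Among all 13303 genes tested 44.2% were called, 22.7% higher and 21.5% lower. Among the 11345 protein-coding genes tested 47.5% were called, 24.7% higher and 22.8% lower. The share among the enzymes was therefore near that of all genes and slightly below that of protein-coding genes. The CPM values of the groups did not overlap for 29 of the 59 genes (49.2%). They did not overlap for 52.8% of all genes and 56.1% of protein-coding genes tested. The median log2 fold change was 0.03 for the enzymes and 0.00 for all genes, and the median absolute log2 fold change was 0.15 for the enzymes and 0.21 for all genes. Only 3 of the 26 called enzymes changed by at least 1.5-fold, and 8.19% of all genes tested had a larger absolute change than any enzyme. In the plot of every tested member, Dnmt1 and Kmt5a stand highest and Kdm7a lowest.

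**Figure D1:**
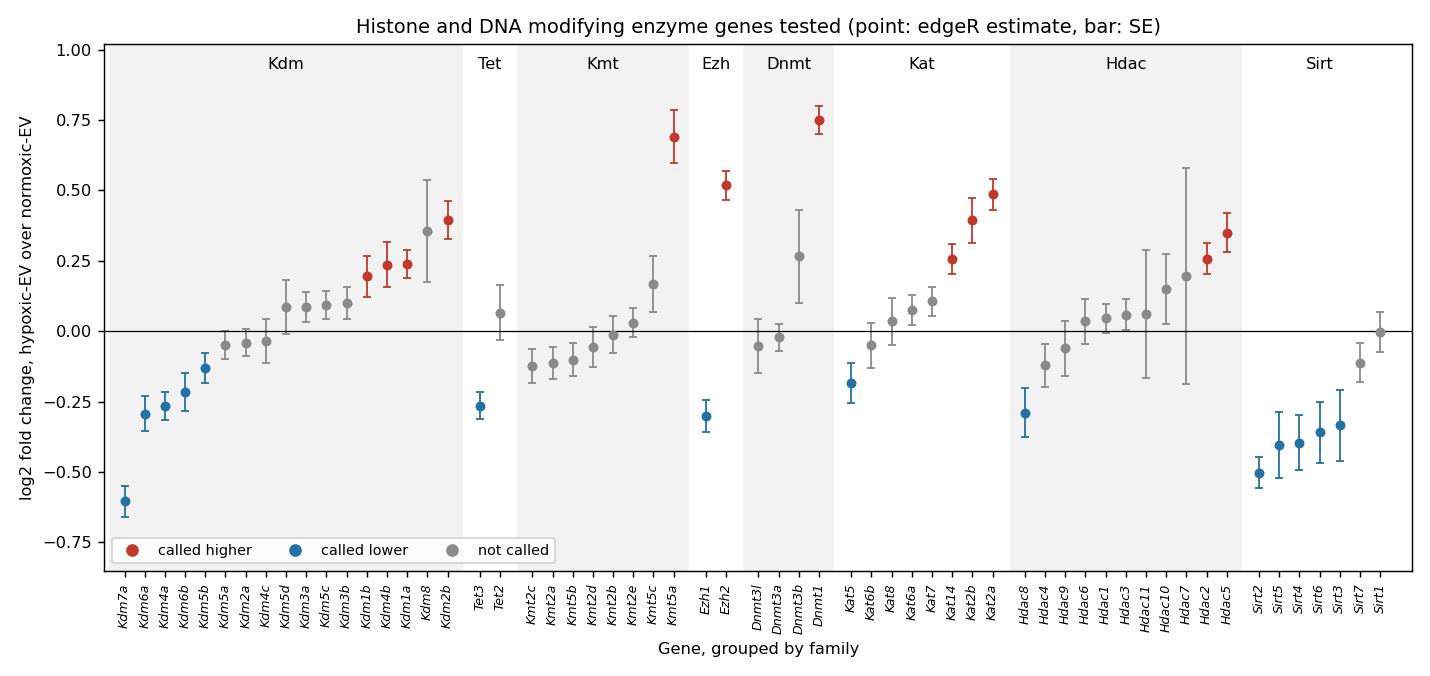
Log2 fold change of hypoxic-EV over normoxic-EV (y axis) for the 59 tested genes, ordered within their families (x axis); points are edgeR estimates and bars are SE, with red for called higher, blue for called lower and grey for not called. Dnmt1 at 0.75 and Kmt5a at 0.69 are the highest points, Kdm7a at -0.60 is the lowest, and the 7 sirtuins all lie at or below 0.

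The medians of the oxygen-dependent class and of the other enzymes lay close together. Of 19 tested Kdm and Tet genes, 4 rose (21.1%) and 6 fell (31.6%), beside 22.7% and 21.5% of all genes tested. In total 52.6% of the class were called, beside 44.2% of all genes and 47.5% of protein-coding genes. The median log2 fold change of the class was 0.07. The 4 that rose became 2 without normoxic-EV replicate 1, without normoxic-EV replicate 2 or without hypoxic-EV replicate 3, and 1 without overlapping genes. Overlapping genes are here the 8 members whose span overlaps an other-strand gene with at least 20% of their count. The 10 called became 6 without normoxic-EV replicate 2. Of 40 other enzymes, 8 rose and 8 fell (40.0% called, median 0.01), and the 8 that fell became 5 without normoxic-EV replicate 1 and 5 without overlapping genes. The median of Kdm and Tet minus that of the others was 0.053. It changed sign without normoxic-EV replicate 1 (-0.02), without hypoxic-EV replicate 2 (-0.003) and without the 8 overlapping genes (-0.073). It also changed sign when Kdm1a and Kdm1b were counted with the others (-0.069). Within single libraries, log2 CPM taken relative to the normoxic-EV mean gave a class difference of -0.025 to 0.024 in normoxic-EV and -0.048 to 0.022 in hypoxic-EV. The ranges overlap, and the difference between the classes was given no test because genes are not replicates. In the cumulative plot both classes follow the curve of all genes near 0 and lack its tails.

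**Figure D2:**
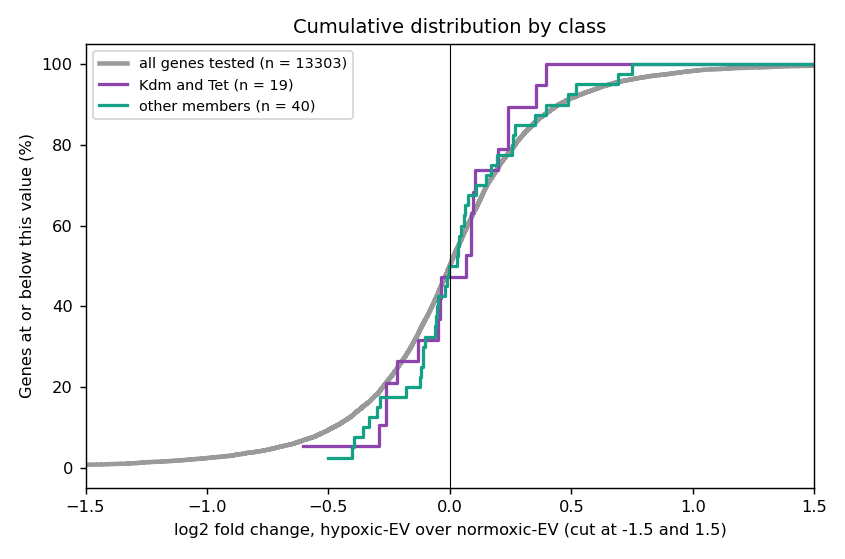
Percentage of genes (y axis) at or below each log2 fold change (x axis, cut at -1.5 and 1.5) for 19 Kdm and Tet genes, 40 other members and all 13303 genes tested. Both member curves cross 0 near their middle, and neither extends past -0.60 or 0.75.

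Among the demethylases the largest change was a fall of Kdm7a, which encodes a Jumonji enzyme for H3K9 and H3K27 dimethylation. Kdm7a (ENSMUSG00000042599, GRCm39 chromosome 6, 39113557 to 39183723) stood at 138, 143 and 155 CPM in the normoxic-EV libraries and at 90.3, 100.3 and 96.6 CPM in the hypoxic-EV libraries. All hypoxic-EV values lay below all normoxic-EV values, and the gene fell by 0.60 on the log2 scale (SE 0.0547, adjusted p = 1.36e-08 by edgeR). Kdm4a, which removes methyl groups from H3K9 and H3K36, was the Kdm gene of highest level per length at 25.2 FPKM and fell from 158, 161 and 158 CPM to 137, 124 and 136 CPM (log2 change -0.265, adjusted p = 0.000159 by edgeR). The H3K27 demethylase genes Kdm6a and Kdm6b both fell. Kdm6a stood at 48.6, 48.6 and 49.8 CPM in normoxic-EV and 40.1, 42.4 and 37.8 CPM in hypoxic-EV (log2 change -0.29, SE 0.0619, adjusted p = 0.000611 by edgeR). Kdm6b stood at 49.0, 57.5 and 50.5 CPM in normoxic-EV and 46.4, 42.3 and 46.3 CPM in hypoxic-EV (log2 change -0.22, adjusted p = 0.0124 by edgeR), and its call was lost without normoxic-EV replicate 2, its highest library (adjusted p = 0.117 by edgeR).

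Of the Kdm genes that rose, Kdm2b had the largest change, 1.315-fold. Kdm2b, whose product binds unmethylated CpG islands and recruits a Polycomb complex, rose from 27.5, 26.3 and 28.3 CPM to 35.8, 37.0 and 35.4 CPM (log2 change 0.395, adjusted p = 5.35e-05 by edgeR). Its span overlaps Rnf34 on the other strand, which had 103% of its count, a log2 fold change of 0.00, and 5.77% of Kdm2b exon bases in common in the GENCODE vM21 annotation of GRCm38. Kdm1a, the flavin enzyme that removes mono- and dimethylation of H3K4, rose from 99.01, 92.37 and 102.3 CPM to between 115 and 116 CPM in each hypoxic-EV library (log2 change 0.24, adjusted p = 0.000576 by edgeR). It overlaps Luzp1 on the other strand (107% of its count, log2 change 0.32) without sharing exon bases in that annotation. Its relative Kdm1b had a log2 change of 0.20 (adjusted p = 0.0341 by edgeR), but Dek on the other strand had 1120% of its count, rose by a like amount (0.20) and shares 9.19% of its exon bases, so Kdm1b reads are uncertain. Kdm4b stood at 19.8, 20.8 and 22.7 CPM in normoxic-EV and 25.2, 23.38 and 26.21 CPM in hypoxic-EV (log2 change 0.24, adjusted p = 0.0183 by edgeR), and the adjusted p reached 0.0859 when single libraries were left out or DESeq2 was used.

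The other members with a known response to hypoxia did not pass the test. Kdm3a, an H3K9 demethylase, stood at 119, 115 and 116 CPM in normoxic-EV and 114, 127 and 130 CPM in hypoxic-EV (log2 change 0.09, SE 0.0528, adjusted p = 0.194 by edgeR). The groups overlapped, and the gene was called only without hypoxic-EV replicate 1, its lowest hypoxic-EV library (adjusted p = 0.0355 by edgeR). Kdm4c stood at 28.5, 33.3 and 33.9 CPM in normoxic-EV and 28.9, 33.8 and 30.7 CPM in hypoxic-EV (log2 change -0.04, SE 0.0783). Of 19 tested genes of a list of HIF targets, 13 rose and 2 fell in these libraries (median log2 fold change 0.43). These shares were 68.4% and 10.5%, beside 22.7% higher and 21.5% lower among all genes tested. The list was not tested against other genes. Kdm5a and Kdm6a are known for a low affinity for oxygen. Kdm5a, an H3K4 demethylase, stood at 122, 131 and 131 CPM in normoxic-EV and 120, 131 and 121 CPM in hypoxic-EV (log2 change -0.05, SE 0.0507, adjusted p = 0.473 by edgeR). Kdm5c, another H3K4 demethylase, stood at 74.96, 75.79 and 77.28 CPM in normoxic-EV and 84.03, 78.96 and 80.69 CPM in hypoxic-EV, with no overlap but no call (log2 change 0.09, adjusted p = 0.139 by edgeR). Kdm5d also had 0.09 and was not called. Kdm5b had -0.13 (adjusted p = 0.0481 by edgeR), a call lost in 8 of 13 alternative fits. Kdm2a, Kdm3b and Kdm8 had log2 fold changes of -0.04, 0.10 and 0.36 and were not called.

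Promoter letters are shown for 3 Jumonji genes with a window that holds the core of the hypoxia response element. Kdm7a was called lower, and Kdm3a and Kdm4c were not called. The core was searched as ACGTG or GCGTG on both strands of windows from 250 bases before to 50 bases after the RefSeq start sites of GRCm38.p6. Of 32851 windows of that length 43.8% held it, and of 75 windows of 50 matched members 52.0% did. Counted by gene, 46.7% of 27025 genes and 64.0% of the 50 matched members held it. It was held by 72.7% of 11 members called higher, 69.2% of 13 called lower and 62.5% of 24 not called. These shares were not tested. Below are the 250 bases before the start and the first 20 after it, with core matches in capitals and reverse-strand matches written as they read on the gene's strand. The printed window is 1 of 3 for Kdm3a and 1 of 2 for Kdm4c, and the other windows of these genes held no match. Kdm3a lies at chr6:71632898-71633167 (minus strand, 1 match, 27 bases before the start), Kdm4c at chr4:74251629-74251898 (plus strand, 6 matches, of which pairs overlap in CACGTG) and Kdm7a at chr6:39206754-39207023 (minus strand, 2 matches, 246 and 139 bases before the start). A match is a description of the letters, and no binding was measured.
Kdm3a: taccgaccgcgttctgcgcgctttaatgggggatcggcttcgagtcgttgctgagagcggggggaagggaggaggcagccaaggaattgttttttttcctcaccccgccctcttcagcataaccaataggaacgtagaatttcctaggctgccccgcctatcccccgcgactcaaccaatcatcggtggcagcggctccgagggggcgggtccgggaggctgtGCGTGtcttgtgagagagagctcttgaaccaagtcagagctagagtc
Kdm4c: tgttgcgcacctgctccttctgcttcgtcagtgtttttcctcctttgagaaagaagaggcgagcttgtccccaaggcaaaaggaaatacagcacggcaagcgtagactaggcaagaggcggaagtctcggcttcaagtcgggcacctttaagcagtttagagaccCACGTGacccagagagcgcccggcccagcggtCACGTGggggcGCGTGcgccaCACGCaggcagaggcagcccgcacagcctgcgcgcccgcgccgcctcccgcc
Kdm7a: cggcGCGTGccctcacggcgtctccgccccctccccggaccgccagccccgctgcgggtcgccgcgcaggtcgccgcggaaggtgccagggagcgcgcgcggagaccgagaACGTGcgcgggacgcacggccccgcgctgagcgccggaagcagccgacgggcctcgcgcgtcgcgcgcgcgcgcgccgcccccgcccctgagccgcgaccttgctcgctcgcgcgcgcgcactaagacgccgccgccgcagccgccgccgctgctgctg

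Of the 3 enzymes that oxidise methylcytosine, Tet3 fell. Its values were 120, 118 and 126 CPM in normoxic-EV and 104, 102 and 97.9 CPM in hypoxic-EV (log2 change -0.26, SE 0.0489, adjusted p = 0.000157 by edgeR). Tet2 stood at 27.04, 35.5 and 31.06 CPM in normoxic-EV and 36.8, 34.2 and 27.5 CPM in hypoxic-EV (log2 change 0.07, SE 0.098, adjusted p = 0.616 by edgeR), with overlapping groups. Tet3 was the Tet gene of highest level per length, at 6.66 FPKM beside 1.90 for Tet2 and 0.0101 for Tet1.

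Dnmt1, Kmt5a and Ezh2 rose most of all members. Dnmt1, the maintenance DNA methyltransferase that copies methylation after replication (ENSMUSG00000004099, GRCm39 chromosome 9, 20818505 to 20871184), stood at 98.3, 107 and 106 CPM in normoxic-EV and 174, 171 and 179 CPM in hypoxic-EV. It was 1.68-fold higher (log2 change 0.75, SE 0.0488, adjusted p = 8.29e-11 by edgeR). Kmt5a, which monomethylates H4K20 and whose protein peaks in mitosis (ENSMUSG00000049327, chromosome 5, 124577993 to 124600371), stood at 65.3, 83.84 and 59.95 CPM in normoxic-EV and 129.5, 99.38 and 108 CPM in hypoxic-EV. Its SE was the largest among the risen members, and the groups did not overlap (log2 change 0.69, SE 0.0948, adjusted p = 4.59e-06 by edgeR). Ezh2, the H3K27 methyltransferase of Polycomb repressive complex 2 in dividing cells (ENSMUSG00000029687, chromosome 6, 47507073 to 47572275), stood at 82.1, 77.5 and 84.2 CPM in normoxic-EV and 114, 122 and 114 CPM in hypoxic-EV (log2 change 0.52, SE 0.0514, adjusted p = 5.25e-08 by edgeR). Its paralogue Ezh1, which prevails in resting cells, fell from 61.1, 65.4 and 64.9 CPM to 50.04, 51.5 and 53.66 CPM (log2 change -0.30, adjusted p = 0.000171 by edgeR). The FPKM ratio of Ezh2 to Ezh1 was 1.42 ± 0.091 (SD, n = 3) for normoxic-EV and 2.51 ± 0.126 for hypoxic-EV. Proliferation markers moved with these genes: 24 of 24 rose (median log2 change 0.795), beside 22.7% of all genes tested. Their summed level was 2820 to 2980 CPM in normoxic-EV and 4720 to 4900 CPM in hypoxic-EV. The part of proliferation in the rise of Dnmt1, Kmt5a and Ezh2 was not tested. In bulk RNA more expressing cells and more RNA per cell cannot be told apart.

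**Figure D3:**
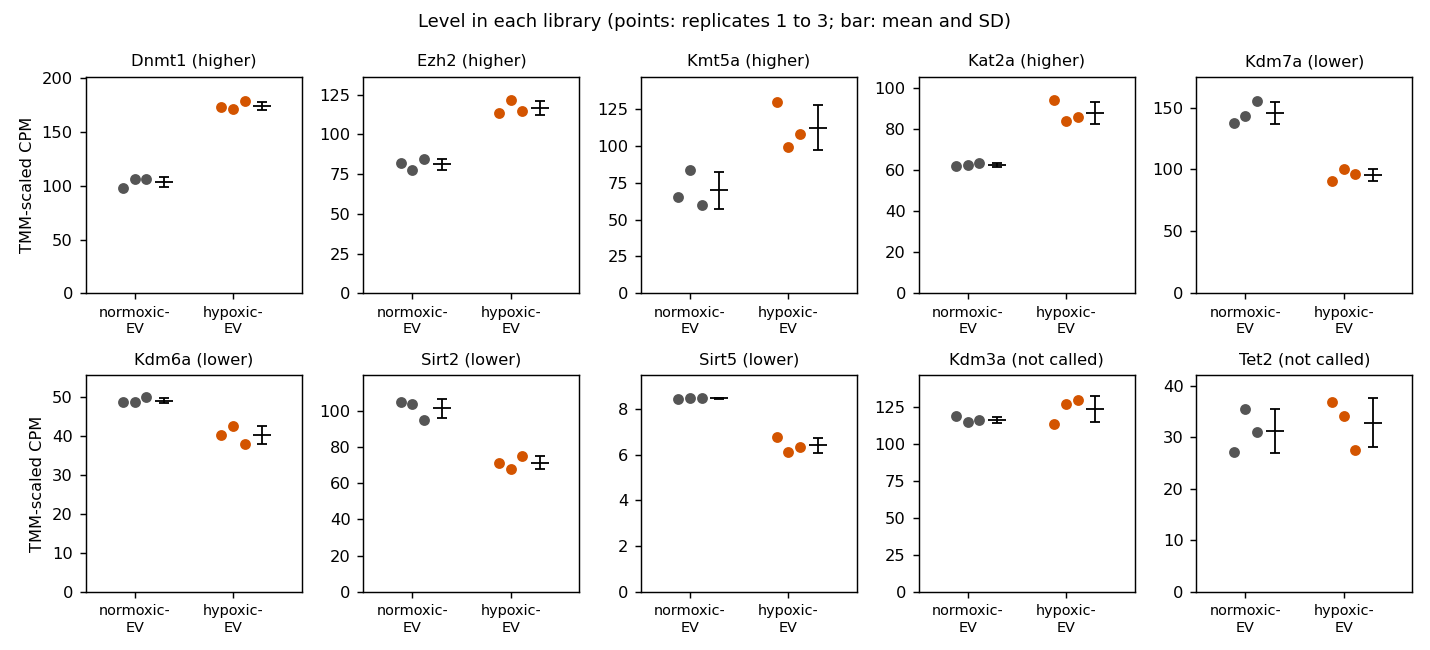
TMM-scaled CPM (y axis, from 0) of 10 members in each normoxic-EV and hypoxic-EV library (x axis); points are replicates 1 to 3 and the bar beside them is the mean with its SD. The groups are apart for Dnmt1, Ezh2, Kmt5a, Kat2a, Kdm7a, Kdm6a, Sirt2 and Sirt5 and overlap for Kdm3a and Tet2.

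Letters of the E2F, NF-kB and CHR motifs were searched in the same promoter windows. NF-kB letters occurred in 68.0% of member windows and 50.8% of all windows, and CHR letters in 13.3% and 17.9%. The windows of Kmt5a, which rose, held no E2F match. No binding was measured, and the part of E2F factors in the changes was not tested. The E2F letters are shown because Dnmt1 and Ezh2 are known targets of E2F factors, which drive genes of DNA replication. TTTCCCGC, TTTGGCGC or TTTCGCGC occurred on either strand in 1.84% of the 32851 windows and in 4 of 75 member windows (5.33%), which belonged to Dnmt1 and Ezh2, which rose, Sirt4, which fell, and Kmt5c, which was not called. The stretches of the called genes follow, with matches in capitals: Dnmt1 at chr9:20952604-20952873 (minus strand, 1 of 3 windows, 219 bases before the start, with another match 33 bases after the start, past the printed stretch), Ezh2 at chr6:47595011-47595280 (minus strand, 3 bases after the start) and Sirt4 at chr5:115484278-115484547 (minus strand, 9 bases before the start), all in GRCm38.p6.
Dnmt1: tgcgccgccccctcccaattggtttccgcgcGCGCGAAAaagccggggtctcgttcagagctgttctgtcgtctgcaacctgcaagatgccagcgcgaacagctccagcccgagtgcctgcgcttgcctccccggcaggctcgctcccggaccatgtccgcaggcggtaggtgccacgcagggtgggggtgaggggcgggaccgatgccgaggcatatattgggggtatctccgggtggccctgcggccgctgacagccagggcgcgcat
Ezh2: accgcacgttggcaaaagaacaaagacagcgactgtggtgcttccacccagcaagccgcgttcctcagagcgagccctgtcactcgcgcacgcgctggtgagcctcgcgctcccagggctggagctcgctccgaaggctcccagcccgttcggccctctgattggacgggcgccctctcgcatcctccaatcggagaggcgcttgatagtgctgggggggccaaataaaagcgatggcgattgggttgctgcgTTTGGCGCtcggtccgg
Sirt4: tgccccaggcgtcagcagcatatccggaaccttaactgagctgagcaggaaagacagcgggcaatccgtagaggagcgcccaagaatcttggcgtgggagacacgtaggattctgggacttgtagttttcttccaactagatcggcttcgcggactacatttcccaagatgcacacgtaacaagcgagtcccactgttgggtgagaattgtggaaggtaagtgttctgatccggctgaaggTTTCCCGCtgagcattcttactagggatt

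Of the remaining methyltransferase genes tested, none was called. The de novo DNA methyltransferase Dnmt3a stood at 99.8, 103 and 106 CPM in normoxic-EV and 99.5, 100.2 and 105 CPM in hypoxic-EV (log2 change -0.02, SE 0.049, adjusted p = 0.748 by edgeR). Dnmt3b, at 0.784 FPKM, and Dnmt3l, which lacks catalytic activity, had log2 fold changes of 0.27 and -0.05 and were not called. None of the 5 Kmt2 genes, most of which serve H3K4 methylation at promoters and enhancers, was called, and their log2 fold changes ran from -0.12 to 0.03. Kmt2a, Kmt2c and Kmt2d were each called lower in 1 or 2 fits without a single library. Kmt5b and Kmt5c, which add the second and the third methyl group to H4K20, had log2 fold changes of -0.10 and 0.17 (adjusted p = 0.18 and 0.188 by edgeR). The CPM values of the groups did not overlap for Kmt5b and overlapped for Kmt5c. Kmt5a thus rose without its relatives being called, and the FPKM ratio of Kmt5a to Kmt5b went from 4.06 ± 0.644 to 7.02 ± 0.921 (SD, n = 3).

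Of 8 acetyltransferase genes 3 rose and 1 fell, so that 50% were called beside 44.2% of all genes. Those that rose include both GCN5-type enzymes. Kat2a, the GCN5 acetyltransferase of the SAGA and ATAC complexes (ENSMUSG00000020918, chromosome 11, 100595572 to 100603291), rose from 62.0, 62.3 and 63.7 CPM to 94.1, 84.1 and 85.6 CPM (log2 change 0.49, SE 0.0548, adjusted p = 3.24e-07 by edgeR). Kat2b, its paralogue PCAF, rose from 18.01, 19.09 and 17.64 CPM to 23.9, 25.7 and 22.3 CPM (log2 change 0.39, adjusted p = 0.000401 by edgeR). Kat14, another subunit of ATAC, had a log2 change of 0.26 (adjusted p = 0.000481 by edgeR). Of the 5 MYST-type enzymes, Kat6a, Kat6b, Kat7 and Kat8 had log2 fold changes from -0.05 to 0.11 and were not called. The fifth, Kat5, had -0.18 (adjusted p = 0.0432 by edgeR), a call lost in 8 of 13 alternative fits. Kat5 shares 12.1% of its exon bases with Rnaseh2c on the other strand, which had 82.9% of its count and rose by 0.96.

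Among 11 zinc-dependent deacetylase genes 2 rose, 1 fell and 8 were not called, so that 27.3% were called beside 44.2% of all genes. The family was not tested against other genes here. Hdac1, the member of highest level at 31.7 FPKM, stood at 109.8, 106.5 and 106.6 CPM in normoxic-EV and 106.6, 108.7 and 117.6 CPM in hypoxic-EV (log2 change 0.05, SE 0.0506, adjusted p = 0.494 by edgeR). A processed pseudogene named Hdac1-ps had 43.0% of its count, so reads of the 2 may have been divided. Hdac2, its partner in the Sin3, NuRD and CoREST complexes, rose from 87.2, 88.6 and 94.2 CPM to 106, 115 and 103 CPM (log2 change 0.26, SE 0.0538, adjusted p = 0.000513 by edgeR). Hdac5, a class II enzyme that shuttles between nucleus and cytoplasm, rose by 0.35 on the log2 scale (adjusted p = 0.000317 by edgeR), from 31.8, 36.3 and 34.3 CPM to 46.7, 40.9 and 43.1 CPM. Hdac8, a class I enzyme, fell by 0.29 (adjusted p = 0.0105 by edgeR), a call lost without normoxic-EV replicate 1 (adjusted p = 0.0531 by edgeR). Hdac3, Hdac4, Hdac6, Hdac9, Hdac10 and Hdac11 had log2 fold changes from -0.12 to 0.15 and were not called. Hdac7, at 0.081 FPKM, was not called either (log2 change 0.20), and its span overlaps Slc48a1, whose count was 19700% of its own.

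The sirtuins, NAD-dependent deacylases, had 5 of 7 members called lower and 0 called higher (median log2 change -0.36), beside 21.5% lower and 22.7% higher among all genes tested. The family was not tested against other genes. Sirt2, which deacetylates tubulin and histone H4 and acts mainly in the cytoplasm (ENSMUSG00000015149, chromosome 7, 28466160 to 28488086), was the sirtuin of highest level at 17.1 FPKM. It fell from 105, 104 and 95.0 CPM to 71.3, 67.8 and 74.7 CPM (log2 change -0.50, SE 0.0552, adjusted p = 2.28e-07 by edgeR). Sirt2 overlaps Nfkbib on the other strand, which had 25.7% of its count, fell by 0.67 on the log2 scale and shares 0.834% of its exon bases. The mitochondrial sirtuins Sirt3, Sirt4 and Sirt5 each fell. Sirt5, which removes succinyl and malonyl groups, went from 8.44, 8.47 and 8.49 CPM to 6.79, 6.12 and 6.33 CPM (log2 change -0.40, SE 0.117, adjusted p = 0.00794 by edgeR). Sirt4 went from 14.9, 14.7 and 13.6 CPM to 11.2, 10.2 and 11.3 CPM (log2 change -0.395, adjusted p = 0.0023 by edgeR). Sirt3, the main mitochondrial deacetylase, had a log2 change of -0.33 (adjusted p = 0.0374 by edgeR). Psmd13 on its other strand had 911% of its count, so its reads are uncertain. Sirt6, a nuclear deacetylase of H3K9, stood at 21.89, 18.92 and 20 CPM in normoxic-EV and 16.8, 12.51 and 17.99 CPM in hypoxic-EV (log2 change -0.36, adjusted p = 0.0102 by edgeR). The calls of Sirt3 and Sirt6 were both lost without normoxic-EV replicate 1 and without hypoxic-EV replicate 2, which left 3 of 7 called. Sirt1, the best-known nuclear sirtuin, stood at 53.8, 46.9 and 54.7 CPM in normoxic-EV and 46.6, 54.6 and 53.8 CPM in hypoxic-EV (log2 change 0.00, SE 0.0702, adjusted p = 0.977 by edgeR). Sirt7 had -0.11 (adjusted p = 0.211 by edgeR), and its span overlaps Mafg on the same strand, with 506% of its count.

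Summed by mark, writers and erasers of H3K27 and of DNA methylation moved in opposite directions. These sums of FPKM, the authors' values scaled to gene length and depth, were formed after the genes' values had been seen, carry no test, and are ruled by their most abundant members. Kdm7a, which also acts on H3K27, and Kdm4a, which also acts on H3K36, were counted only with the H3K9 demethylases. H3K27 methyltransferases (Ezh1 and Ezh2) summed to 20.7 ± 0.525 in normoxic-EV and 24.4 ± 0.485 in hypoxic-EV, and H3K27 demethylases (Kdm6a and Kdm6b) to 13.4 ± 0.659 and 11.2 ± 0.309 (FPKM, SD, n = 3). DNA methyltransferases summed to 20.9 ± 0.826 and 30.6 ± 0.601 FPKM and Tet enzymes to 9.13 ± 0.317 and 8.02 ± 0.528 FPKM. In each of these 4 sums the groups did not overlap. The same held for every other sum except that of H3K4 methyltransferases, and for 52.8% of all single genes tested. H3K9 demethylases went from 72.2 ± 2.07 to 64.6 ± 1.21 FPKM, sirtuins from 53.3 ± 1.65 to 43.0 ± 2.60, acetyltransferases from 73.7 ± 1.01 to 85.5 ± 2.10 and zinc-dependent deacetylases from 85.8 ± 0.387 to 91.9 ± 0.451. H3K4 methyltransferases of the Kmt2 group stood at 25.6 ± 1.25 and 24.4 ± 2.17 FPKM with overlapping groups, and H3K4 demethylases (Kdm1 and Kdm5) at 48.9 ± 1.15 and 52.9 ± 0.709 FPKM without overlap.

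**Figure D4:**
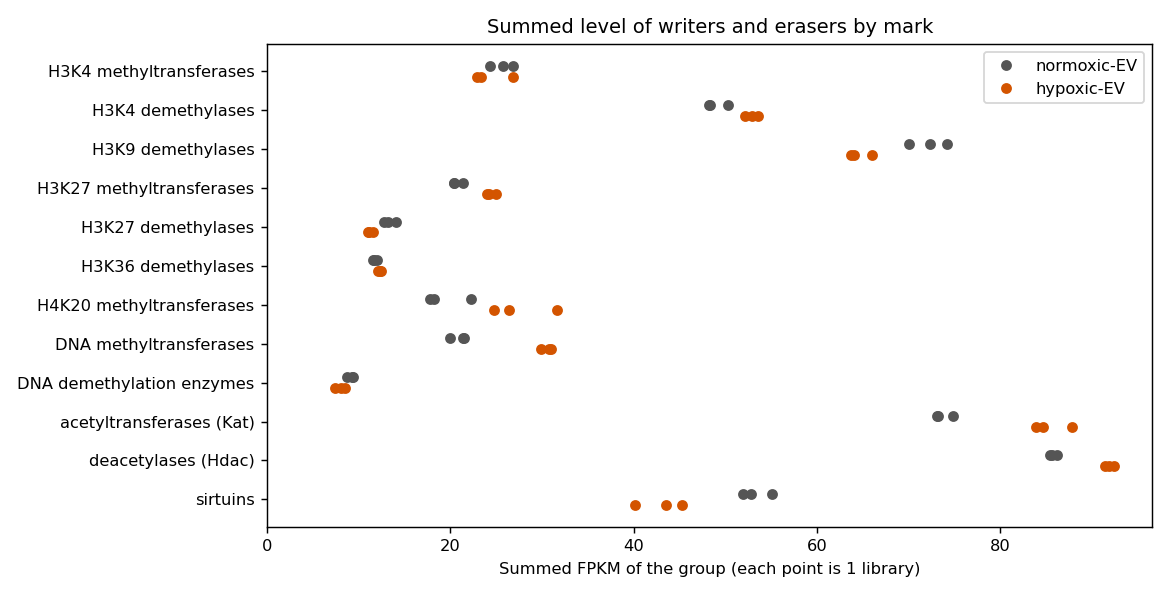
Summed FPKM (x axis, from 0) of the members assigned to each mark or activity (y axis), with 1 point for each normoxic-EV library (grey) and each hypoxic-EV library (orange). Kdm7a and Kdm4a are counted only with the H3K9 demethylases. The groups overlap for H3K4 methyltransferases and are apart for the other sums, among them DNA methyltransferases (20.9 against 30.6) and sirtuins (53.3 against 43.0).

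Levels per length ranged from 0.0101 FPKM for Tet1 to 31.7 FPKM for Hdac1. The order at the top was Hdac1, Kdm4a at 25.2, Hdac2 at 22.1, Kat2a at 21.6, Kdm1a at 20.6 and Dnmt1 at 18.8 FPKM, as means over the 6 libraries. In that order Kat2a was above Hdac2 in hypoxic-EV (25.2 ± 1.83 against 24.1 ± 1.33) and below it in normoxic-EV (17.98 ± 0.283 against 20.1 ± 0.854), and only the second pair of values lies apart by more than its SD. The median over the tested members was 6.14 FPKM, beside 6.05 for all genes tested. Of the 8 tested members under 1.5 FPKM, Sirt5 was the one called.

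**Figure D5:**
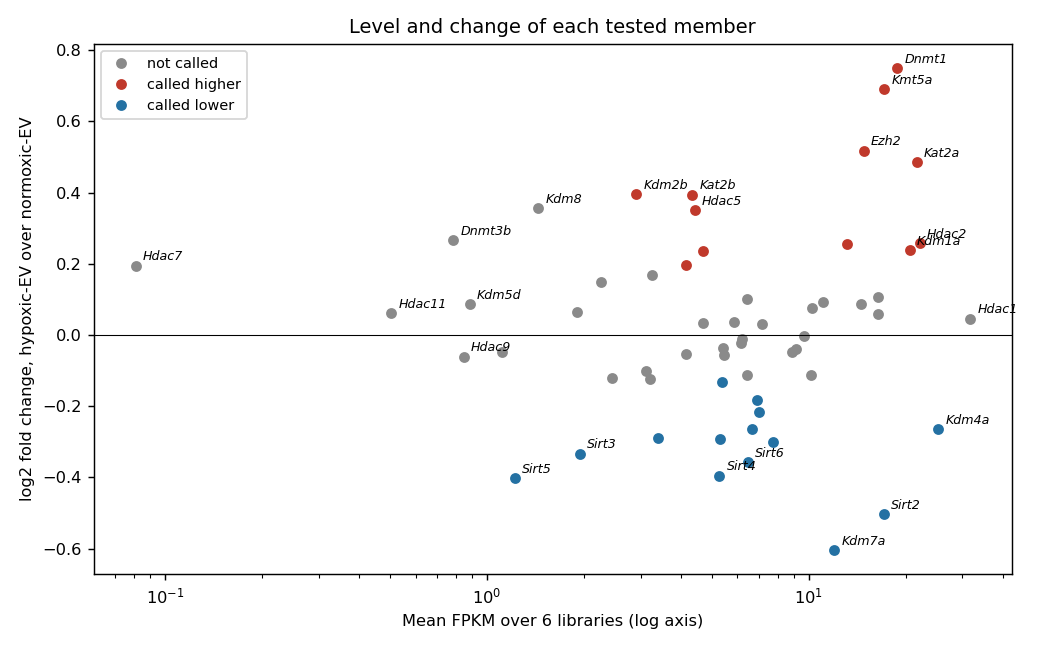
Log2 fold change of hypoxic-EV over normoxic-EV (y axis) against the mean FPKM over 6 libraries (x axis, log scale) for the 59 tested members, coloured by call. Dnmt1, Kmt5a, Ezh2 and Kat2a lie at the top right, between 14.8 and 21.6 FPKM, and Kdm7a and Sirt2 at the bottom right.

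Genes that work with these enzymes were counted in lists outside the rule, and each count reads against 22.7% called higher and 21.5% called lower among all genes tested. None of the lists was tested against other genes. The arginine methyltransferases (25.0% higher) and the DNA methylation partners (30.8% higher, 23.1% lower) lay nearest to those shares. Of 22 tested partners in deacetylase corepressor complexes, 15 rose and 1, Sin3b, fell (median log2 fold change 0.27). They were led by Rcor2, a CoREST subunit gene, at 0.71, Sap30, a Sin3 subunit gene, at 0.61, and Chd4, the NuRD remodeller gene, at 0.35. Of 11 partners of the H3K4 methyltransferase (COMPASS) complexes, 7 rose and 0 fell (median 0.20), with Psip1 at 0.44, Hcfc1 at 0.35 and Paxip1 at 0.40. Of 9 Polycomb repressive complex 2 partners, 5 rose and 1 fell (median 0.20), among them Rbbp7 at 0.405, Phf19 at 0.71 and Jarid2 at 0.47. Of 26 lysine methyltransferases with other names, 11 rose and 4 fell (median 0.11), with the H3K9 methyltransferase genes Suv39h1 at 0.61 and Ehmt2 at 0.41 and with Prdm2 at -0.43. Of 15 other acetyltransferases, 7 rose and 1 fell, and the fallen gene was Ep300, encoding p300, at -0.28, while Esco2 and Hat1, which act on cohesin and on newly made histones, rose by 0.715 and 0.37. Of 8 arginine methyltransferases, 2 rose, Prmt1 by 0.485 and Carm1 by 0.43. Of 13 DNA methylation partners, 4 rose and 3 fell, with Gadd45a and Gadd45b at -1.04 each and Hells, a remodeller needed for DNA methylation, at 0.58.

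Oxygenases of the same chemistry outside the set were called about as often as all genes. Of 24 tested genes for other iron and 2-oxoglutarate dependent oxygenases, 6 rose and 5 fell (45.8% called beside 44.2% of all genes, median log2 fold change -0.08). The HIF prolyl hydroxylase genes Egln3 and Egln1, which are HIF targets themselves, rose by 1.39 and 0.45, and Jmjd1c, a Jumonji gene related to Kdm3a, fell by 0.335 on the log2 scale. Jmjd1c overlaps Reep3 on the other strand, at 60.1% of its count. Of 23 genes that supply or consume cofactors of these enzymes, 13 rose and 3 fell (56.5% and 13%, beside 22.7% and 21.5% of all genes, median 0.18), led by the isocitrate dehydrogenase genes Idh2 at 0.73, Idh3a at 0.545 and Idh1 at 0.55, whose enzymes make 2-oxoglutarate. The authors' deposited table of 462 genes held none of the 62 members (0), and its smallest absolute log2 fold change was 1, while the largest of a member here was 0.75.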

How the data were processed

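Poly(A) RNA of 6 RAW 264.7 samples was sequenced in pairs on an Illumina HiSeq instrument, per the labels' protocols. HISAT2, GRCm39, featureCounts and DESeq2 all appear in the submitters' processing notes. No version, annotation, strand setting or handling of multi-mapped reads is given in the sources used here. For genes that overlap on opposite strands, it is therefore not known whether reads from the bases they share were told apart. Deposited by the authors were counts per gene as whole numbers, FPKM values, and a comparison table with log2 fold changes, p-values, a test statistic (a score), counts and mean counts (a signal). A deposited table of normalized counts was not used.

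The counts were tested in edgeR 4.0.16 (R 4.3.3): filterByExpr (minimum count 10, minimum total 15), TMM, quasi-likelihood F test, two-sided, Benjamini-Hochberg adjustment over 13303 genes, called under 0.05. SE is the log2 fold change divided by the square root of F, and the fit was tested on simulated data. A count of 3, the limit a count of 0 allows, was 0.129 to 0.179 CPM, for counting error only.

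Members and lists were chosen with earlier results of these data known. Named with values per sample were the 6 Kdm or Tet genes and the 8 others of largest change among called genes with 2 CPM or more in the higher group, 13 genes with a known response or role, and the most abundant gene of each family. Of pathway lists, the 3 called genes of lowest p were named. Genes outside this rule were named after their values were seen. All 251 list symbols matched the table. Groups came from the treatment labels. Alternatives were other scalings, filters, DESeq2 1.42.0, limma-voom 3.58.1, a replicate block, single libraries left out, Kdm1a and Kdm1b moved, and 8 overlapping genes dropped. Those 8 overlap an other-strand gene with at least 20% of their count, and members with smaller overlaps were kept. Promoters came from RefSeq (GRCm38.p6), with a window found for 50 of 62 members.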

Additional observations from a re-analysis of the deposited data

How the results depend on the processing

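Of the 26 called members, 18 kept their call and direction in each of 13 alternative fits and 8 lost it in at least 1 (Hdac8, Kat5, Kdm1b, Kdm4b, Kdm5b, Kdm6b, Sirt3 and Sirt6), and none changed sign (0). Of 33 members not called, 6 were called in at least 1 fit. The number of Kdm and Tet members called higher was 4, and it was 2 with DESeq2, 2 with Kdm1a and Kdm1b counted with the others, 1 without overlapping genes, and 2 to 5 without single libraries. Kdm and Tet members called were 10 in all and 6 to 11 without single libraries, the lowest without normoxic-EV replicate 2. Other members called lower were 8, 5 without overlapping genes and 5 to 9 without single libraries, the lowest without normoxic-EV replicate 1. The class difference of 0.053 was -0.069 with Kdm1a and Kdm1b moved, -0.073 without overlapping genes, and -0.02 to 0.055 without single libraries. In counts by family, tried after the data were seen, called sirtuins were 5 and ranged from 3 to 5, and called Kdm genes were 9 and ranged from 5 to 10, without single libraries. The cause of these shifts was not tested, except that leaving out genes or samples leaves fewer of them. Same-numbered libraries deviated from their group means with correlations of -0.016, -0.018 and -0.018, and libraries of unlike number with -0.038 to 0.054. These values gave no sign of pairing by number. Deviations from means of 3 libraries cannot exclude it. With the replicate block 23 members were called instead of 26, Kat5, Kdm1b and Kdm5b being lost, and 5662 instead of 5877 genes. Precision followed the counts: Hdac7 (62 counts over 6 libraries, SE 0.384), Hdac11 (224, SE 0.226) and Kdm8 (400, SE 0.182) had the largest SE of the tested members. A change larger than its SE was not enough for a call. Kdm8, at a log2 change of 0.36, was not called (adjusted p = 0.12 by edgeR).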
